A study of Mus musculus with 94 samples.

Results

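The collagen chains were taken as every gene of the single-cell table whose symbol has the form Col, a number, a and a number, which gave 28 of 16069 genes. The reference annotation holds 44 symbols of that form, and the other 16 were not analysed here. The 28 genes comprised 7 fibrillar chains, 6 type IV chains of basement membranes, 5 type VI chains, 3 FACIT chains (fibril-associated collagens with interrupted triple helices), 2 multiplexins, 2 short-chain collagens, 1 transmembrane collagen and 2 remaining chains. They were described in cells that the study names PV-ADSCs, for mesenchymal stem cells of perivascular fat. The cells were sorted as CD144-/CD45-/CD29+/Sca1+ from the tissue around the aorta of c57/bl mice at 8 weeks of age. No treatment and no transgene were named. The methods of the study name C57BL/6J and pool the tissue of several mice for a primary culture, and whether the sorted cells came from pooled mice was not stated. The series describes 94 cells of this 1 condition, and the table analysed here holds 85 of them. The labels tie no cell to an animal. The cells therefore count as 1 sample, comparisons carry no test, and SDs and ranges are over cells.

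Collagens are secreted proteins in which chains with a repeated glycine wind into a triple helix. Fibrillar collagens build the tensile fibers of connective tissue and are a main product of fibroblasts and other stromal cells. Type IV collagen forms the network of basement membranes, which underlie endothelium and surround adipocytes. Type VI collagen makes beaded filaments close to cells and is abundant in adipose tissue. Each helix is folded in the endoplasmic reticulum with the help of hydroxylases and chaperones, trimmed outside the cell and cross-linked.

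The cells were parted by their deposited value of Dcn, which encodes decorin, a proteoglycan that binds collagen fibrils and is made by stromal cells. A value of at least 1000 held in 58 cells (Dcn-high cells) and not in 27 (other cells). The values nearest to this limit were 6521 and 11185 above it and 269 and 239 below it. Whole reads were recovered from the normalized values, and totals ranged from 1146945 to 4776510 reads per cell with a median of 2963854 in Dcn-high cells and 2714449 in other cells. Dcn-high cells had a median of 2813 genes above 0 and other cells of 1416. At least 3 of 9 stromal markers (Dcn left out) reached 100 reads in 57 of 58 Dcn-high cells and in 0 of 27 other cells. At least 3 of 11 endothelial markers did so in 1 of 58 and in 23 of 27 cells. The summed level of the stromal list had a median of 31673 RPM (reads scaled to the total of the cell) in Dcn-high cells (34.9 to 78624). In other cells the median was 9.27 RPM (3.48 to 2663), and Clec3b and Fbn1 were at 0 there. The summed level of the endothelial list had a median of 2.60 RPM in Dcn-high cells (0 to 14180), where Tie1 was at 0. In other cells its median was 8018.5 RPM (0 to 13720). Cdh5, which encodes the CD144 that the sort gate excluded, had at least 100 reads in 20 of 27 other cells and in 0 of 58 Dcn-high cells. At least 3 markers at 100 reads were found for the mesothelial list in 2 Dcn-high cells and 0 other cells, and for the pericyte list in 0 cells of either group, while the adipocyte, immune and Schwann lists had rows for 1 of 5, 2 of 5 and 1 of 4 genes. A difference by Dcn value and a difference by these marker lists cannot be told apart in these cells.

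One Dcn-high cell, cell 50, stood apart. Its Dcn value of 6521 came from 69 reads multiplied by a normalization factor of 94.5, it had 850 genes above 0 and the lowest total, and only 6 of its reads were collagen reads. No stromal marker reached 100 reads in it, but 1 endothelial marker, Kdr, did. Its 16197 Kdr reads (14122 RPM) were the highest Kdr level of any cell, with at most 6426 RPM in an other cell. The rule by Dcn value kept cell 50 among the Dcn-high cells. The remaining Dcn-high cells had between 18172 and 282890 Dcn reads and the other cells 4 to 248, which describes the rule that parted the cells and is no finding.

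Collagen genes took a larger part of the reads in Dcn-high cells than in other cells, and the make-up of these reads was different. The median was 1.20% of recovered reads in Dcn-high cells (lowest 0.000523%, highest 8.90%) and 0.129% in other cells (lowest 7.3e-05%, highest 0.420%). Cell 50 gave the lowest Dcn-high value, and the next lowest was 0.304%, below the highest of the other cells. Outside type IV, the median was 1.11% in Dcn-high cells and 0.000285% in other cells. For type IV alone it was 0.0378% and 0.113%. In reads, the median was 34428 per Dcn-high cell and 3260 per other cell. A Dcn-high cell had a median of 11 collagen genes above 0 (range 1 to 17), and an other cell had 3 (range 1 to 7).

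Composition was computed in cells with at least 100 collagen reads, which were 57 Dcn-high and 24 other cells. Fibrillar chains made up a median of 74.1% of the collagen reads of a Dcn-high cell (36.1% to 95.2%) and at least 50% in 51 of the 57 cells. Type VI chains followed with a median of 13.5%, FACIT chains with 4.93% and type IV chains with 2.30%. In other cells, type IV chains made up a median of 99.8%, and at least 99% in 20 of the 24 cells. Per kb of transcript the medians were 73.3% fibrillar in Dcn-high cells and 99.8% type IV in other cells, so transcript length changed neither.

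**Figure D1:**
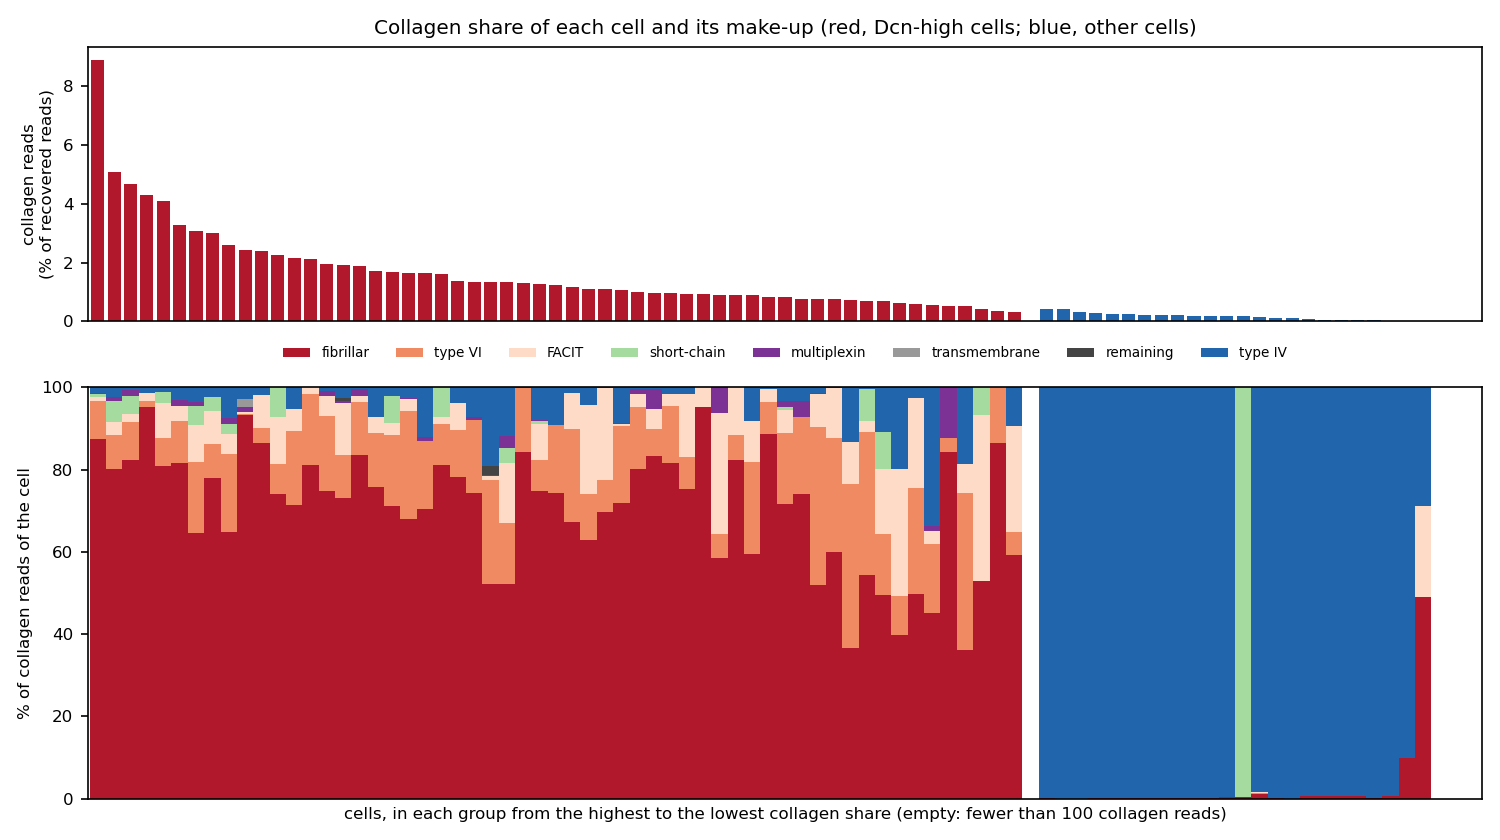
Upper bars, collagen reads as a percentage of all recovered reads of each cell, with 58 Dcn-high cells in red and 27 other cells in blue. Lower bars, the make-up of those collagen reads by class in cells with at least 100 of them. Fibrillar chains filled a median of 74.1% in Dcn-high cells, and type IV filled a median of 99.8% in other cells, where a cell with Col8a1 and a cell with 114 collagen reads stand out.

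A gene was counted as higher in a group when the mean of log2(value + 1) differed by at least 1 between Dcn-high and other cells, where value is the normalized value of the authors. This is a rule of size and not a test. Of the 28 collagen genes, 19 were higher in Dcn-high cells, against 25.4% of all 16069 genes. In other cells, 1 of 28 was higher, against 2.03% of all genes. The median difference was 1.54 over the collagen genes and 0.32 over all genes. A total of 17 collagen genes were above 0 in at least 10 cells, and 11 in fewer. On log2(RPM + 1), 16 of the 28 were higher in Dcn-high cells, against 20.8% of all genes, and 1 in other cells, against 1.79%. By class, 6 of 7 fibrillar, 4 of 5 type VI, 3 of 3 FACIT, 2 of 2 multiplexin, 2 of 2 short-chain and 2 of 6 type IV genes were higher in Dcn-high cells. Of the 28 genes, 12 were each above 0 in at least 50% of Dcn-high cells, against 10.4% of all genes. At 0 in every other cell were 15 of the 28, against 43.4% of all genes.

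**Figure D2:**
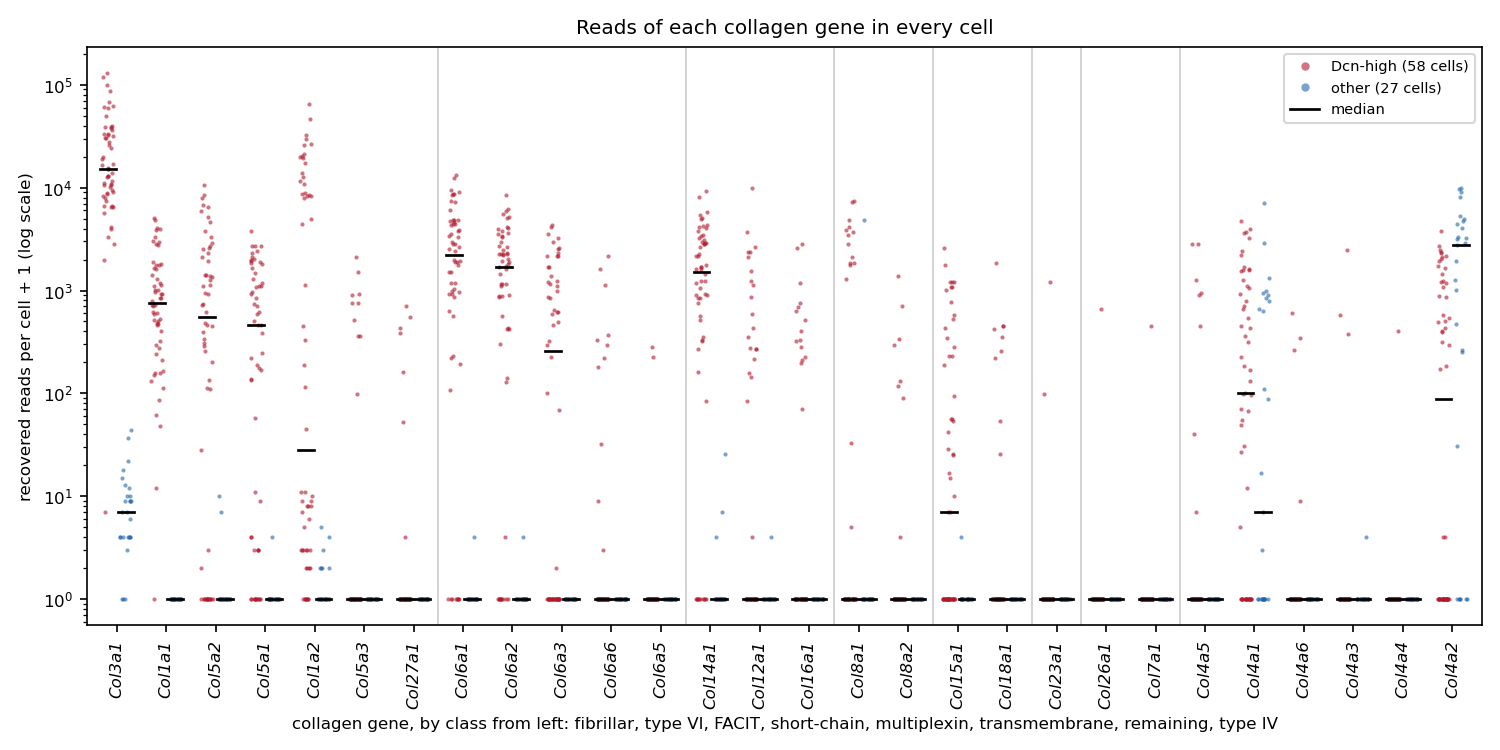
Recovered reads of each of the 28 collagen genes plus 1 on a log axis, with a point per cell (red, 58 Dcn-high cells; blue, 27 other cells) and black bars at the group medians. Col3a1, Col1a1, Col6a1, Col6a2 and Col14a1 lie high in most Dcn-high cells, Col1a2 falls into a high and a low set, and Col4a2 is the gene with the higher median in other cells.

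Col3a1, the chain of type III collagen of elastic tissues such as the vessel wall, was the leading collagen of Dcn-high cells. Its reads ranged from 6 to 129248 with a median of 15174.5 in Dcn-high cells, and from 0 to 43 with a median of 6 in other cells. Apart from cell 50, every Dcn-high cell (at least 2001 reads) was above every other cell. Mean log2 values were 13.96 ± 1.48 (SD, n = 58) and 3.10 ± 1.69 (SD, n = 27), a difference of 10.86. Col3a1 alone gave a median of 50.1% of the collagen reads of a Dcn-high cell, and it had the most reads per kb of all collagens in 46 of 57 such cells. In the remaining 11 cells this place was taken by Col1a2 (6 cells), Col6a1 (3 cells), Col14a1 (1 cell) and Col4a2 (1 cell).

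The chains of type I collagen, the main fibril of most connective tissue, behaved differently from each other. Col1a1 ranged from 0 to 5034 reads in Dcn-high cells with a median of 758 and was at 0 in all 27 other cells. This allows a share of cells with a read of up to 11.1% by a floor of 3 cells and of up to 12.8% by the exact 95% interval, and it does not limit the share of cells that express the gene. The group means were 9.21 ± 2.07 (SD, n = 58) and 0, and cell 50 was the only Dcn-high cell without Col1a1. Col1a2 ranged from 0 to 64671 reads in Dcn-high cells with a median of 27, and from 0 to 4 in other cells. Its Dcn-high mean of 7.01 ± 5.96 (SD, n = 58) had the widest spread of all collagen genes.

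The spread of Col1a2 came from cells that were either high or almost empty. Of the 58 Dcn-high cells, 8 had 0 reads, 21 had 1 to 10, 1 had 44, 4 had at least 100 but fewer than 1000 and 24 had at least 1000, with a median of 13337.5 in the last set. Of the 29 cells with at most 10 Col1a2 reads, 25 had at least 100 reads of Col1a1 and 28 had at least 1000 reads of Col3a1. Their median depth of 2909521 reads was close to the 2954990 of the cells with at least 1000 Col1a2 reads, and so was the median of 2765 genes to that of 2854.5. Where both type I chains had at least 10 reads (31 cells), Col1a1 was mostly below Col1a2 per kb. The median log2 ratio was -3.71, with quartiles of -4.98 and -1.93, and Col1a1 was above Col1a2 in 4 cells. Cells with fewer than 10 Col1a2 reads fall outside this ratio. Over all 58 Dcn-high cells the median was 758 reads for Col1a1 and 27 for Col1a2. Col3a1 was above Col1a1 per kb in all 57 cells with at least 10 reads of both, with a median log2 ratio of 4.63 ± 1.56 (SD over cells). These ratios assume full-length coverage of the longest coding transcript, and the coverage along each gene was not analysed here.

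The promoters of the leading fibrillar chain and of the chain with the split pattern are shown because these genes gave most fibrillar reads. Each is the 300 bases from 250 before to 50 from the RefSeq transcript start on, in GRCm38.p6, 5′ to 3′ along the gene, at chr1:45311288-45311587 (Col3a1, plus strand) and chr6:4505368-4505667 (Col1a2, plus strand). Capitals mark matches to motifs searched on both strands. The first, called the GC box, has the letters GGGCGG. The second, the box named for its letters CCAAT, is known from many promoters. The third, called the TATA box, has the letters TATAAA. A box counted here is a match of letters at any position of the window. No matches overlapped in the windows shown.
Col3a1: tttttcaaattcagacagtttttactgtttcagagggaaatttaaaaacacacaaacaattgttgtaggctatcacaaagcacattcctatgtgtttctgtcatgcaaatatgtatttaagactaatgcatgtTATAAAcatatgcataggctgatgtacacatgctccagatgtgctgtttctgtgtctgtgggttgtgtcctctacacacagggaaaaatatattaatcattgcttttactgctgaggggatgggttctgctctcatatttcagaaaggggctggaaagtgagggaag
Col1a2: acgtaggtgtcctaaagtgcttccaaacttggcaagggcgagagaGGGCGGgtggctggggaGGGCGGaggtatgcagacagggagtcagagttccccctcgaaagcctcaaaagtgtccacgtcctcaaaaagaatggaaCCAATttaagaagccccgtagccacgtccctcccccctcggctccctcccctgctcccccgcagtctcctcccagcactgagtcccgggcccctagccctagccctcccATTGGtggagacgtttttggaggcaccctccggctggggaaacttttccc
The Col3a1 window held 1 match to TATAAA, at position -117 from the start, and none to the others. The Col1a2 window held 2 GC boxes and 2 CCAAT boxes. In GENCODE M21, the annotation used for positions, Col1a2 starts upstream, at base 4504814, so this RefSeq window lies within that gene. Among 32851 promoter windows of the same length, 35.7% held the GC box, 37.4% the CCAAT box and 13.6% the TATA box. A window was found for 22 of the 28 collagen genes (24 windows), of which 18 held the GC box, 8 the CCAAT box and 1 the TATA box, that of Col3a1. GC content ran from 37.7% (Col3a1) to 75% (Col5a1) in the collagen windows. It was mostly above the median of 52.7% over all promoter windows, and the shares of boxes were not adjusted for it. Whether a factor binds to these boxes was not measured.

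**Figure D3:**
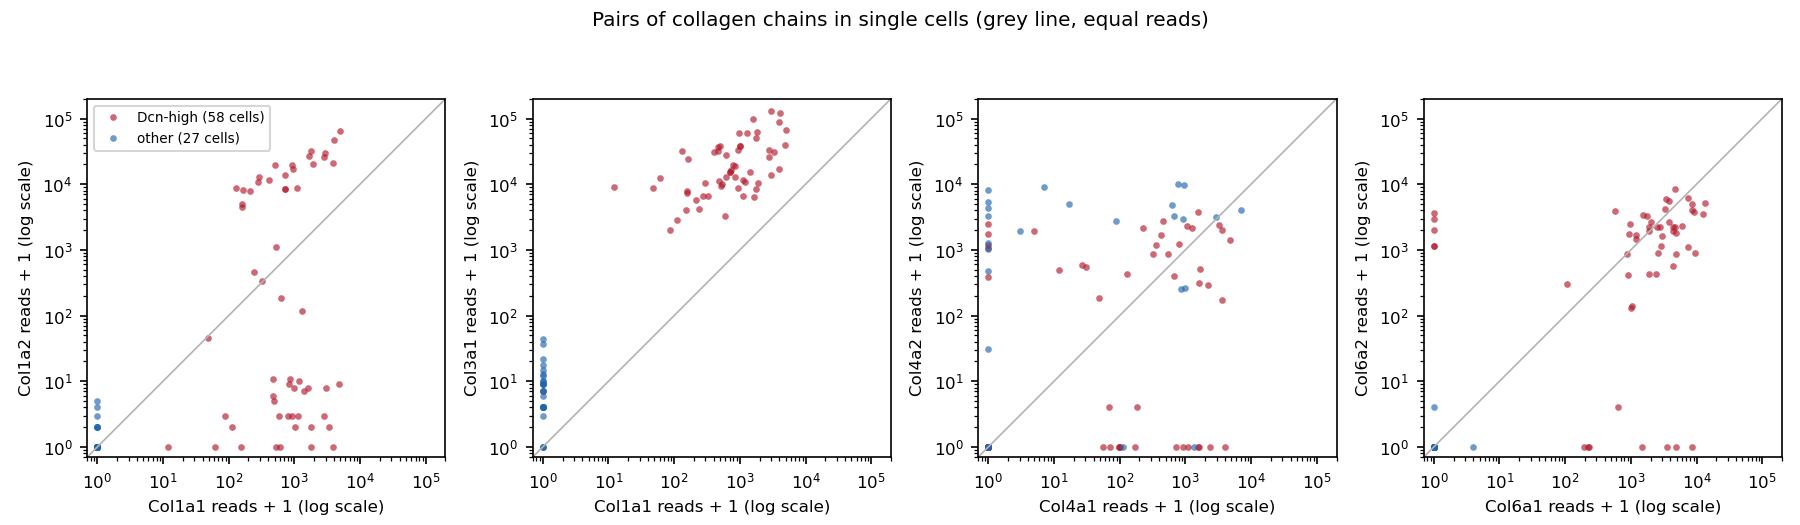
Recovered reads plus 1 of pairs of collagen chains in each cell on log axes, with Dcn-high cells in red (58) and other cells in blue (27) and a grey line at equal reads. Dcn-high cells split into 24 with at least 1000 Col1a2 reads and 29 with at most 10, with 5 between, Col3a1 lies above Col1a1 throughout, and Col4a1 and Col4a2 are each found without the other in part of the cells.

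Type V collagen, a minor chain set that sits within type I fibrils and limits their width, was found in most Dcn-high cells. Col5a1 had a median of 462 reads and a highest value of 3761 in Dcn-high cells and at most 3 in an other cell, a difference of 6.74. Col5a2 had a median of 550.5, a highest value of 10690 and at most 9 in an other cell, a difference of 7.07. At least 10 reads of Col5a1 or Col5a2 were found in 51 of 58 Dcn-high cells and of both chains in 31. In these 31 cells Col5a1 was below Col5a2 per kb, with a median log2 ratio of -1.56, but the cells were mixed, with Col5a1 above in 12. Col5a3 was above 0 in 10 Dcn-high cells (up to 2133 reads) and Col27a1 in 7 (up to 707 reads). Both were at 0 in all other cells, and only Col5a3, with a difference of 1.59, passed the rule of size, whereas Col27a1 had 0.88. Reads of Col5a1 cannot be told apart from those of 2810430I11Rik, whose exons overlap it, if the counting did not use strand.

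Type VI collagen was the second class of Dcn-high cells. Col6a1 ranged from 0 to 13298 reads in Dcn-high cells with a median of 2214.5, and 50 of 58 had it (86.2%, 95% interval 74.6% to 93.9%). Col6a2 ranged from 0 to 8535 with a median of 1709 in Dcn-high cells and was above 0 in 48. Each was at 3 reads in 1 other cell and at 0 in the remaining 26, so the groups overlapped only at or near 0. The differences were 9.47 and 8.66. Col6a3, the long chain whose C-terminal fragment is released as endotrophin by adipose tissue, was above 0 in 33 Dcn-high cells (median 258.5, highest 4295) and in 0 other cells, a difference of 5.48. At least 10 reads of Col6a1 or Col6a2 were found in 55 Dcn-high cells, and of Col6a1, Col6a2 and Col6a3 together in 26. Where both had at least 10 reads, Col6a1 was above Col6a2 per kb in 28 of 42 cells (median log2 ratio 0.99 ± 1.43, SD over cells), and Col6a3 was below Col6a1 in all but 2 of 30 (median -2.26). Col6a6 was above 0 in 11 Dcn-high cells (up to 2143 reads) and Col6a5 in 2 (up to 283).

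Among the fibril-associated chains, Col14a1 was the one shared by most Dcn-high cells. It had a median of 1527 reads and a highest value of 9179 there, was above 0 in 48 of 58 cells (82.8%, 95% interval 70.6% to 91.4%), and differed by 8.51. In other cells it was above 0 in 3, with at most 25 reads. Col12a1, which like Col14a1 lies along the surface of fibrils, was above 0 in 21 Dcn-high cells (highest 9906) and Col16a1 in 15 (highest 2821), with differences of 3.31 and 2.32. Any of these chains had at least 10 reads in 50 Dcn-high cells, and in only 2 of these was Col14a1 under 10 reads.

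The multiplexins Col15a1 and Col18a1 link basement membranes to the surrounding matrix, and Col18a1 is the source of endostatin. Col15a1 was above 0 in 30 of 58 Dcn-high cells, but at least 100 reads were found in 17 (highest 2572), and its difference was 3.72. Col18a1 was above 0 in 9 Dcn-high cells (highest 1871), with a difference of 1.24, and at least 10 reads of both were found in 7. In other cells, Col15a1 had 3 reads in 1 cell and Col18a1 was at 0.

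The short-chain collagens form hexagonal networks in vessels and in the cornea. Col8a1 was above 0 in 15 Dcn-high cells, of which 13 had at least 100 reads (highest 7420), and in 1 other cell with 4820 reads. That cell, cell 55, had no read of Col4a1 or Col4a2, had 6 endothelial markers and 1 stromal marker at 100 reads, and was the only other cell with at least 100 reads of any collagen outside type IV. In the remaining 26 other cells, Col8a1 was at 0. Col8a2 was above 0 in 8 Dcn-high cells (highest 1370), in 4 of which Col8a1 also had at least 10 reads. The differences were 2.27 and 1.02. The chains left over were rare. Col23a1, a transmembrane collagen, was above 0 in 2 Dcn-high cells, Col7a1, the chain of anchoring fibrils, in 1 and Col26a1 in 1, and no other cell had them.

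Type IV was the class that other cells shared with Dcn-high cells. Col4a2 was the single collagen gene that was higher in other cells. It ranged from 0 to 10022 reads there with a median of 2754, and from 0 to 3816 with a median of 88 in Dcn-high cells. At least 100 reads were found in 20 of 27 other cells and 29 of 58 Dcn-high cells, so the groups overlapped widely. The means were 5.01 ± 5.01 (SD, n = 58) in Dcn-high cells and 8.55 ± 5.02 (SD, n = 27) in other cells, a difference of -3.54.

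Col4a1, its partner in the same trimer, did not share this direction. It ranged from 0 to 7028 reads in other cells with a median of 6, and from 0 to 4791 with a median of 99 in Dcn-high cells. At least 100 reads were found in 11 of 27 and 29 of 58 cells. The means were 5.80 ± 4.57 (SD, n = 58) in Dcn-high and 4.60 ± 4.82 (SD, n = 27) in other cells. The difference of 1.20 was small beside these SDs and was 0.94 on the scale of log2(RPM + 1), where it no longer reached the rule of size. The deposited values of Col4a1 carried no normalization factor, whereas those of Col4a2 did. On log2(RPM + 1), the difference of Col4a2 was -3.35. Summed over cells, the other cells held 41.2% as many Col4a1 reads and 216% as many Col4a2 reads as the more numerous Dcn-high cells.

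In single cells the chains of type IV were often found apart. At least 10 reads of both Col4a1 and Col4a2 were found in 23 Dcn-high cells, of Col4a1 alone in 15, of Col4a2 alone in 6 and of neither in 14. In other cells the counts were 11, 2, 10 and 4. Where both had at least 10 reads, the median log2 ratio per kb of Col4a1 to Col4a2 was -1.19 (SD 2.44 over 23 cells) in Dcn-high and -2.36 (SD 3.08 over 11 cells) in other cells, and the ranges overlapped. Of the other type IV chains, Col4a5 was above 0 in 8, Col4a6 in 4, Col4a3 in 3 and Col4a4 in 1 Dcn-high cells. An other cell had 3 reads of Col4a3. Exons of Col4a3 overlap those of C430014B12Rik, another gene measured here, and how shared reads were counted is not given.

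Col4a1 and Col4a2 lie head to head on chromosome 8 (GRCm38 11198423 to 11312826, minus strand, and 11312805 to 11449287, plus strand). Their starts are 21 bases apart and their first exons overlap by 22 bases, where reads could not be assigned without strand. The promoter windows are shown because they share 78 bases, at chr8:11312777-11313076 (Col4a1, minus strand) and chr8:11312555-11312854 (Col4a2, plus strand) in GRCm38.p6, with the same motifs in capitals.
Col4a1: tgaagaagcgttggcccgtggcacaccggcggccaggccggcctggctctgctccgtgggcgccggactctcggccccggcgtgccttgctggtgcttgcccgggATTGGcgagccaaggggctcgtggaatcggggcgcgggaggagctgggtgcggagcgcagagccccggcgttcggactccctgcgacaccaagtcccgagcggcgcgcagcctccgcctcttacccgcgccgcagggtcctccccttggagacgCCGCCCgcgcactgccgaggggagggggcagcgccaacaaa
Col4a2: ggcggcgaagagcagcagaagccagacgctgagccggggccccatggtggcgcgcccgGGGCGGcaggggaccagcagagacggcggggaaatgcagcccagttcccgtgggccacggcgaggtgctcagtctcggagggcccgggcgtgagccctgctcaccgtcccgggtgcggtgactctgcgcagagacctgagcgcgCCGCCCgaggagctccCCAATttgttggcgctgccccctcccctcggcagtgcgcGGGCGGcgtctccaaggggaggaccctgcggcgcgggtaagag
The Col4a1 window held 1 GC box and 1 CCAAT box, each on the reverse strand, and the Col4a2 window held 3 and 1. The windows had 1 match in common, a GC box at bases 11312812 to 11312817.

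Reads of collagens outside type IV in other cells were few. Summed over cells, Col3a1 reads in other cells came to 0.0158% of those in Dcn-high cells, Col14a1 reads to 0.0287%, Col5a2 reads to 0.0155% and Col1a2 reads to 0.00298%. For the stromal markers Lum, Gsn, Serping1 and Clec3b the values were 0.0116%, 0.0228%, 0.00322% and 0%. Mfap5, another stromal marker, had at least 100 reads in 1 other cell, with 7630. Col3a1 was above 0 in 24 of 27 other cells (88.9%, 95% interval 70.8% to 97.6%) with at most 43 reads. The source of these reads was not tested. Col8a1, with the reads of cell 55, came to 10.4%. Cell 48, with 43 reads of Col3a1, 25 of Col14a1, 30 of Col4a2 and the highest Dcn count of the other cells, had 8 endothelial and 1 stromal markers at 100 reads. The 3 other cells with fewer than 100 collagen reads included cell 67, which had 285 genes above 0 and no marker of either list at 100 reads.

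Across the 58 Dcn-high cells, collagen genes varied together only weakly. For the 11 members with at least 10 reads in at least 50% of these cells, the 55 pairs of RPM values had Spearman rho from -0.14 to 0.54 with a median of 0.21, and 49 were above 0. The highest were Col1a1 with Col3a1 (0.54), Col3a1 with Col6a1 (0.45) and Col3a1 with Col6a2 (0.41). Chains of the same collagen were not among them, with 0.22 for Col1a1 and Col1a2, 0.02 for Col5a1 and Col5a2, 0.32 for Col6a1 and Col6a2 and 0.33 for Col4a1 and Col4a2. The points share depth and sparse counts, and Col6a2 had a rho of 0.40 with the number of genes above 0. These values describe the cells and carry no test.

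Of 41 genes listed for collagen folding, processing, cross-linking and binding, 37 were in the table, of which 26 were higher in Dcn-high cells, 1 was higher in other cells and 10 lay between. The same rule was met by 25.4% and 2.03% of all genes. By step, to be read against the same 25.4%, 8 of 9 genes of prolyl hydroxylation, 2 of 5 of lysyl hydroxylation, 6 of 6 of chaperoning and export, 4 of 5 of propeptide cleavage, 3 of 5 of cross-linking and 3 of 7 receptors were higher in Dcn-high cells. The largest differences were those of Pcolce (9.55) and Pcolce2 (9.25), enhancers of procollagen C-proteinase, and of Loxl1 (9.28), a cross-linking oxidase. Pcolce had a median of 2542 reads in Dcn-high cells and at most 2 in an other cell, and Loxl1 a median of 1325.5 and 0 in all other cells. Bmp1, the C-proteinase, was above 0 in 23 Dcn-high and 1 other cells (3.97).

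Serpinh1, the collagen chaperone HSP47, was found in most Dcn-high cells and in part of the other cells. It had at least 100 reads in 54 of 58 Dcn-high cells and in 10 of 27 other cells, with medians of 1140.5 and 0 reads and a difference of 5.37. The prolyl hydroxylase subunits P4hb and P4ha1 differed by 1.95 and 1.48, and at least 100 reads of P4ha1 were found in 23 Dcn-high and 6 other cells. Plod1, a lysyl hydroxylase, differed by 0.27, and Lox had reads in 1 Dcn-high cell and 0 other cells (0.18). Of the receptors, Ddr2, which binds fibrillar collagen, was above 0 in 35 Dcn-high and 3 other cells (5.61). Itga1, a subunit of an integrin that binds type IV collagen, was higher in other cells, where it was above 0 in 7 of 27 cells against 5 of 58 (-1.70). The next lowest differences were those of Colgalt2 (-0.31) and Itga2 (0.07).

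**Figure D4:**
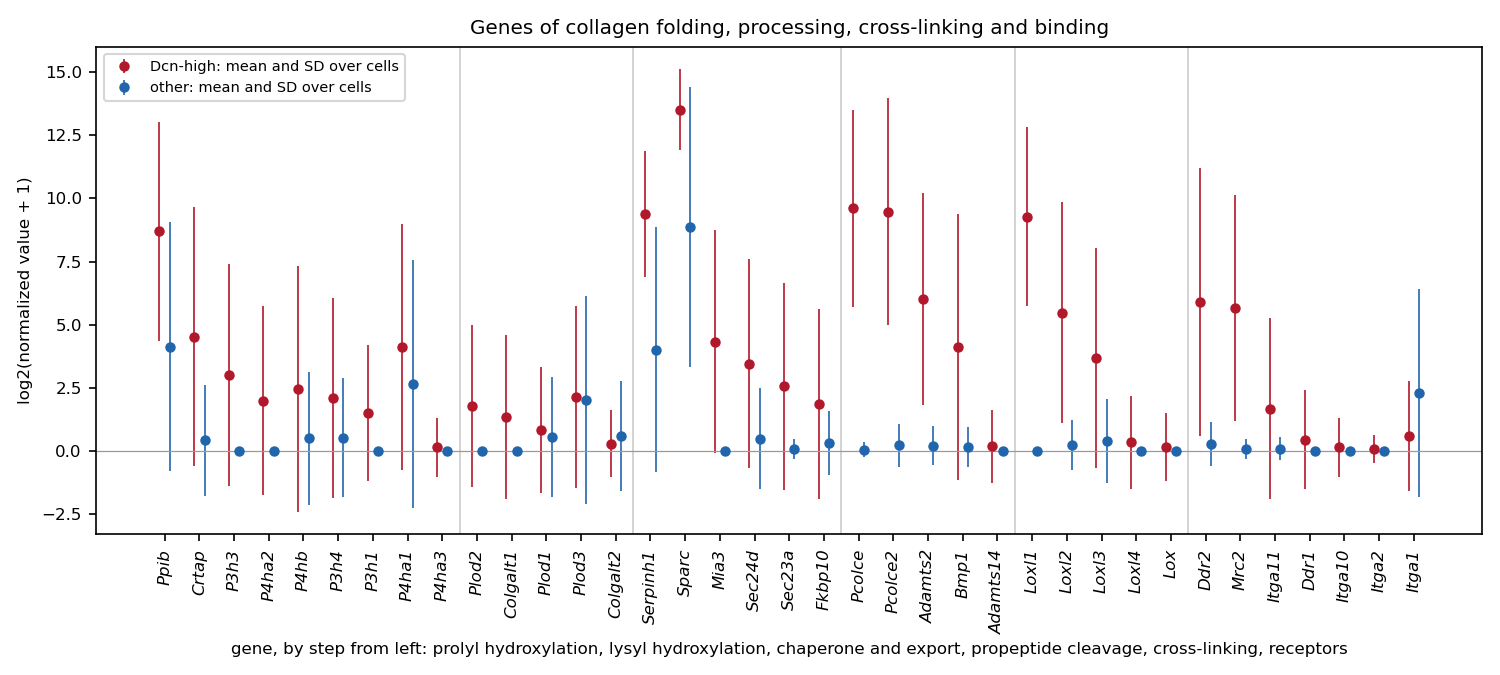
Mean and SD over cells of log2(normalized value + 1) for 37 genes of collagen folding, processing, cross-linking and binding, in order of step, in Dcn-high cells (red, 58) and other cells (blue, 27). Pcolce, Pcolce2 and Loxl1 are near 9 in Dcn-high cells and near 0 in other cells, Serpinh1 is above 0 in both, and Itga1 is the gene with the higher mean in other cells by more than 1.

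Shares of cells changed little with depth. With every cell thinned to 1146945 reads, 45 Dcn-high cells were above 0 for Col1a2 (50 before) and 44 for Col5a1 (47 before), Col3a1 was above 0 in 21 other cells (24 before), and each of the remaining genes changed by at most 1 cell in a group except Col1a2 in other cells (7 before, 5 after).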

How the data were processed

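Single cells were sequenced with a full-length protocol, as 1 library per cell. The authors ran FastQC, HISAT2 2.0.5 against mm9, SAMtools 1.4 and StringTie 1.3.3. The deposited unit is a signal of normalized read counts, and the paper names the default scaling of scater. The factors found in the deposited values differed between groups of genes in the same cell. How they arose is not given in the sources used here. The program that counted reads and its use of strand are not given in the sources used here. Raw counts had been thought possible, but the values were normalized, so log2(value + 1) was taken with no added scaling.

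Genes above 0 in fewer than 10 cells held whole numbers, and so did some genes of more cells, such as Col4a1, Col15a1 and P3h1. The rest fell into 13 groups with a factor for each cell and group (0.0157 to 94.5). Dividing by the factor, where there was one, gave whole reads for all 165973 values above 0 in genes of at least 10 cells. This method was devised after the values were seen, and it is less certain in 20 of 1105 pairs of cell and group, which held fewer than 10 values. Tested on simulated data of 15922 genes, it recovered 99.9995% of values. The simulation was built from the recovered reads and gene groups, so it cannot show that the deposited values have this structure. Of the 28 members, 15 had such a factor and 13, with Col4a1 and Col15a1 among them, had none.

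The members, the cell groups, the marker and processing gene lists and the rules were chosen with earlier results of these data known. Members above 0 in at least 10 cells, or in at least 3 other cells, are described with values and the rest by counts. Of the processing list, the 3 genes with the largest difference in each direction and 9 preset genes are named. The ratio of Col3a1 to Col1a1, cell 48, cell 50, cell 55 and cell 67 were chosen after their values were seen. Transcript lengths, positions and neighbours came from GENCODE M21 (GRCm38, longest coding transcript), which is not the build of the authors, and promoters from RefSeq. Shares carry exact Clopper-Pearson intervals at 95%, and for a gene in 0 cells the upper limit was set at 3 cells of its group. Both cover counting error only. Doublets could not be called with so few cells, and 1 Dcn-high cell carried at least 3 markers of both the stromal and the endothelial list. Computation used Python 3.11.15, numpy 2.4.6, pandas 2.3.3 and scipy 1.17.1.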

Additional observations from a re-analysis of the deposited data

How the results depend on the processing

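All 84 values of the main results under other settings kept their direction and stayed within the limits set for a change. These limits were wide, a fixed ratio for counts and the SD over cells for shares, differences and ratios. For the collagen share of Dcn-high cells the SD was 1.47 beside a median of 1.20, so staying within it shows little. The number of the 28 collagen genes higher in Dcn-high cells (beside the percentage of all genes) was 14 with a pseudocount of 10 (14.6%), 16 on RPM (20.8%), 18 with a Dcn limit of 100 (25.4%) or without cells under 1000 genes (24.4%), and 19 with a Dcn limit of 10000 or Ward clusters (26%), no cell with both marker lists (25.3%), or, added after seeing the data, 1000 Dcn reads (26%) or no cell 50 (25.9%). It was 16 of 17 among genes above 0 in at least 10 cells (60.3%). Only Col3a1, Col4a1 and Col4a2 met this filter in other cells. The remaining genes passed it through Dcn-high cells, so this count was largely set by the filter. Of these, Col1a1, Col5a3, Col6a3, Col6a6 and Col16a1 were at 0 in every other cell. Col4a2 was the 1 gene higher in other cells each time (-3.78 to -2.69), and Col4a1 ranged from 0.69 to 1.47. A Dcn limit above 0 left no other cell, so its values covered all 85 cells. Of the values for single genes, 637 stayed within their limits and 41 moved, mostly shares of cells at 10 or 100 reads. Protein features were not run. No paired analysis was possible because all cells were of 1 group and no result came from a test. The values rest on 1 sample, and genes with few reads per cell can be missed at this depth.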
